A study of Homo sapiens with 12 samples.

Results

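The genes described here are those of the hypoxia response and of glycolysis: 43 listed symbols of regulators of the hypoxia-inducible factors (HIF), HIF targets, glucose and lactate transporters, glycolytic enzymes and the kinases that steer glycolytic flux. A probe set, the group of short probes that reads 1 transcript on the array, was taken where the platform annotation gave it 1 of these symbols, which selected 103 of 54675 probe sets. For 42 of the 43 genes, out of 19775 genes on the array, at least 1 probe set named that gene alone. The brightest of these over all arrays stands for the gene below, 28 genes have further probe sets, and SLC16A3 was not analysed here. The study measured transcripts on 12 Affymetrix expression arrays, in 4 groups of 3, to look for genes that respond when the microRNA miR-16 is held down in multiple myeloma lines. The groups are MMS1 with a miR-16 sponge, MMS1 with a control sponge, RPMI8226 with a miR-16 sponge and RPMI8226 with a control sponge, where the labels give the second line as RPMI or RPMI826 and the sponge groups as miR16 KO or knock down. All 4 groups carry a lentivirus with GFP, and all were sorted by flow cytometry, expanded, grown in parallel flasks and lysed together. The labels state neither the promoter that drives the sponge nor whether the sorted cells were 1 clone, and nothing in them shows that each array had a flask of its own, so the p-values measure only the spread between these arrays.

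A sponge is a transcript with repeated binding sites that occupies a microRNA and so keeps it from its targets. The mature level of miR-16 was not analysed here. The mature sequences below, from RefSeq (GRCh38.p14), are shown because a sponge against miR-16 may also bind microRNAs with the same seed, bases 2 to 8, in capitals. The first comes from both MIR16-1 (chr13:50049027-50049048, minus strand) and MIR16-2 (chr3:160404754-160404775, plus strand), and the other sequences come from MIR15A (chr13:50049167-50049188, minus strand) and MIR15B (chr3:160404607-160404628, plus strand).
hsa-miR-16-5p: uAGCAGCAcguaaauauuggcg
hsa-miR-15a-5p: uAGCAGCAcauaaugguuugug
hsa-miR-15b-5p: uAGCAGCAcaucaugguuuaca

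HIF is a pair of an alpha subunit, HIF1A or EPAS1, and the beta subunit ARNT. In oxygen, prolyl hydroxylases of the EGLN family mark the alpha subunit, VHL binds the mark and the subunit is degraded. When oxygen is low the alpha subunit persists and the pair switches on genes for glucose uptake, glycolysis, mitophagy and collagen hydroxylation, so that cells make ATP with less respiration. Because the alpha subunit is controlled mostly as a protein, transcript arrays read its message and the messages of its targets, not its activity. In a bulk sample, fewer cells that make a transcript and less of it per cell cannot be told apart.

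The deposited values are log2 signals, on which 1 unit is a doubling, and the array medians lay between 5.80 and 5.90. Of the 42 genes, 38 had a mean at or above that of the median gene (6.44), and 4 had a mean above 13, near the highest value of the table (14.78). The marker lists did not follow the labels: of 11 plasma cell markers only SDC1 and XBP1 lay in the top 25% of genes by signal, and JCHAIN read no higher than 4.71 on any array against a floor of 4, while all 8 erythroid markers measured lay in the top 25%. The summed linear signal of the erythroid markers was 29698 to 31076 on MMS1 sponge arrays and 42927 to 44696 on MMS1 control arrays, and it was 43059 to 43945 on RPMI8226 sponge arrays and 36659 to 37040 on RPMI8226 control arrays. That of the plasma cell markers was 1206 to 1338 on MMS1 sponge arrays and 1199 to 1228 on MMS1 control arrays, and it was 1395 to 1602 on RPMI8226 sponge arrays and 1305 to 1428 on RPMI8226 control arrays. Sums of linear signal weigh the brightest genes most, and single erythroid markers went both ways. Of the 8 measured, 2 were called higher and 4 lower with the sponge in MMS1, and 1 higher and 1 lower in RPMI8226. Between the control arrays 2 were higher and 2 lower in RPMI8226. Of 5 T cell, 5 macrophage and 5 fibroblast markers, the T cell gene CD7 alone was called between the MMS1 groups. MMS1 sponge replicate 1 stood apart in the 18S ribosomal control, at 7.84 against 9.56 to 11.1 on the others, so results are also given without it where it decides them. Differences are the sponge mean minus the control mean unless stated, and a gene is called where limma's p, adjusted by Benjamini and Hochberg over all probe sets, is under 0.05.

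In MMS1 the sponge and control arrays differed in both directions within this set. Of the 42 genes 9 rose and 6 fell, and 12.4% of all genes were called (4.34% higher and 8.08% lower), or 19.3% of the genes at least as bright as the median gene. The genes that rose were BNIP3, PFKFB3, GPI, SLC2A3, HIF1A, MXI1, P4HA2, ALDOA and P4HA1, by 0.33 to 0.73 on the log2 scale, and those that fell were PFKP, HK1, SLC2A1, BHLHE40, NDRG1 and EGLN3, by -1.09 to -0.45. The median difference was 0.10 over the set and -0.04 over all genes. The sponge and control arrays did not overlap for 20 genes with higher and 8 with lower sponge signal, against 12.3% of all genes on the higher side and 18.8% on the lower. Of the 15 calls, 6 (BNIP3, GPI, HK1, PFKP, BHLHE40 and NDRG1) held in every alternative processing and without any 1 array. The count of genes that rose was 5 without control replicate 1, 4 without control replicate 2 and 4 without sponge replicate 1, where 8 fell. It was 2 (BNIP3 and GPI) with only the 6 MMS1 arrays in the fit and 14 with the brighter probe sets alone. Of all 54613 probe sets 2296 rose as designed. Without control replicate 1, control replicate 2 or sponge replicate 1, 1565, 1588 and 1725 rose, and 1563 with the 6 MMS1 arrays. With the brighter probe sets alone 2543 of 27307 rose and 4023 fell, where 6 genes of the set fell. The erythroid marker sum moved with these groups, and its part in the result was not tested.

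**Figure D1:**
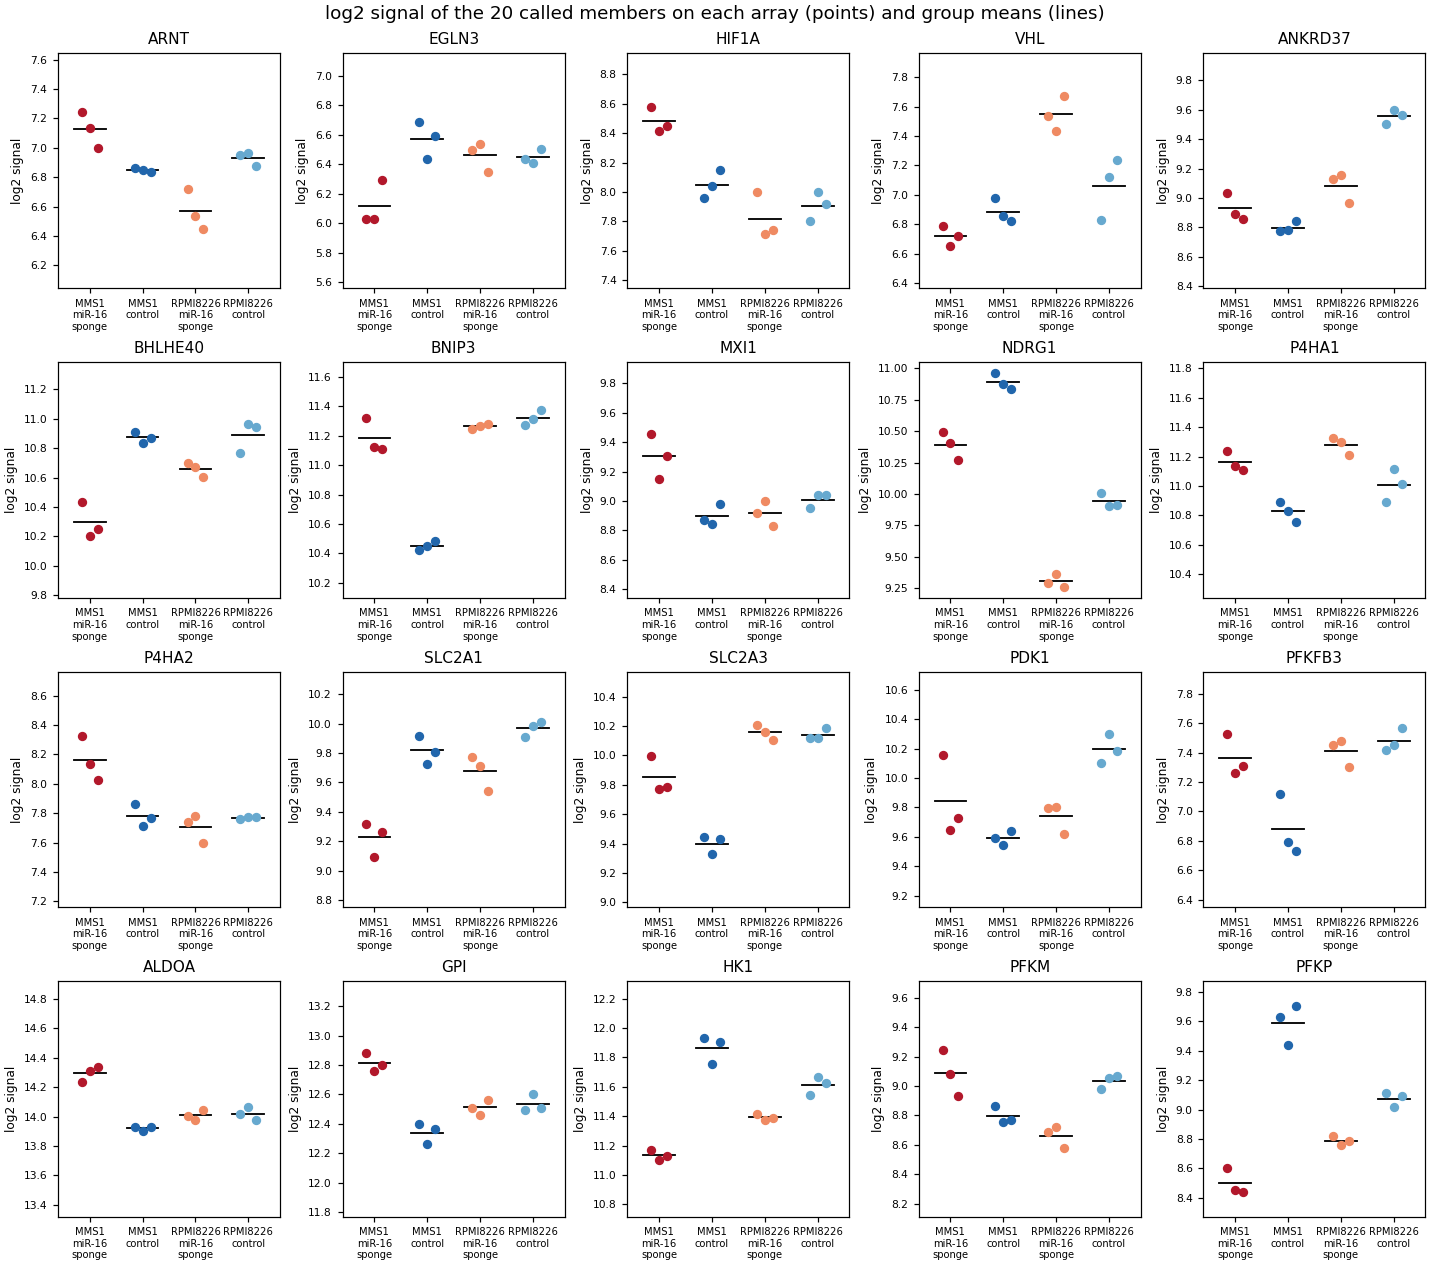
Log2 signal of the 20 genes called for the sponge in MMS1, in RPMI8226 or for the difference between the lines, 1 panel a gene, with 1 point an array and a bar at each group mean. Each panel runs from MMS1 sponge and MMS1 control to RPMI8226 sponge and RPMI8226 control. BNIP3, GPI and SLC2A3 sit higher on MMS1 sponge than on MMS1 control arrays and overlap between the RPMI8226 groups, while NDRG1 sits lower on sponge arrays of both lines.

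HIF binds short motifs in promoters and enhancers whose core reads ACGTG or GCGTG. Both were searched on both strands in 300-base windows (250 before and 50 after the transcript start) from RefSeq, which held 70 windows for 38 of the genes and 35116 in all. ACGTG lay in 40.0% of the windows of these genes and in 21.4% of all windows, GCGTG in 42.9% and 36.5%, and CACGTG, which contains ACGTG on both strands, in 14.3% and 7.26%. ACGTG lay in 57.1% of the 14 windows of the 8 genes with a window that rose in MMS1, and in 14.3% of the 14 windows of the 5 that fell, and in 42.9% of the 42 windows of the 25 not called. GCGTG lay in 35.7% of the windows of genes that rose, in 28.6% of those of genes that fell and in 21 of the 42 of genes not called. A match is only a match of letters, and genes with several starts count several times. The 250 bases before the start are shown for the called genes with a single window and the largest differences each way, so that genes which moved in both directions are seen, with ACGTG and GCGTG of either strand in capitals. BNIP3 has 6 matches (4 GCGTG, and ACGTG on both strands of 1 CACGTG), GPI 1, SLC2A1 none in this stretch and BHLHE40 4. They lie at chr10:131981924-131982173 (minus strand), chr19:34364742-34364991 (plus strand), chr1:42958869-42959118 (minus strand) and chr3:4979187-4979436 (plus strand) of GRCh38.p14, and each is written along its gene's strand.
BNIP3: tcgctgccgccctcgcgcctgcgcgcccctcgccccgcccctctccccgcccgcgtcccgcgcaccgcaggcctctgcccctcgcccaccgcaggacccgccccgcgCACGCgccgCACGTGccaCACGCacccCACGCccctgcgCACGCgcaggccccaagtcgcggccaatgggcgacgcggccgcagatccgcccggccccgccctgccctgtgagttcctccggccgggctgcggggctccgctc
GPI: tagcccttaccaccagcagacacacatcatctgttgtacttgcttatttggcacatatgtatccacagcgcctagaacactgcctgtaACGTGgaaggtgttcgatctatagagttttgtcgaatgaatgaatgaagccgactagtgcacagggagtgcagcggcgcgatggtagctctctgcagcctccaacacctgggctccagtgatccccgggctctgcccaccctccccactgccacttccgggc
SLC2A1: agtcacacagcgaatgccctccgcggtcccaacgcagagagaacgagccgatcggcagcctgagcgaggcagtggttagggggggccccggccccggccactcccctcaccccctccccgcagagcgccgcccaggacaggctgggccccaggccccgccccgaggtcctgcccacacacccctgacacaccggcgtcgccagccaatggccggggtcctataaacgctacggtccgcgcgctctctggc
BHLHE40: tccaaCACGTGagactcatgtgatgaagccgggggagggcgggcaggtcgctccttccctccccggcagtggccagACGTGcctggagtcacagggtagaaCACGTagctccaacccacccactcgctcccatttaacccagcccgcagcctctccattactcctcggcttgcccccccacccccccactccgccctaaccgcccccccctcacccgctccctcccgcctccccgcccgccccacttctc

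Among the 7 HIF regulators in MMS1, 1 rose and 1 fell, where 4.34% of all genes rose and 8.08% fell. HIF1A, the oxygen-regulated alpha subunit, had log2 signals of 8.58, 8.42 and 8.45 on sponge arrays, against 7.96, 8.04 and 8.15 on control arrays. Its sponge arrays all lay above its control arrays, with a difference of 0.43 (SE 0.11, adjusted p = 0.0235). EGLN3, a prolyl hydroxylase that is itself a HIF target, had signals of 6.03, 6.03 and 6.29 on sponge arrays, against 6.69, 6.44 and 6.59 on control arrays. All sponge arrays were the lower ones, and the difference was -0.45 (SE 0.11, adjusted p = 0.0181). The differences of ARNT (0.28), EGLN2 (0.16), EPAS1 (-0.07), VHL (-0.16) and EGLN1 (-0.28) did not pass, with adjusted p-values of 0.122 to 0.744. The call of HIF1A was lost without control replicate 1 (adjusted p = 0.0979), control replicate 2 (0.0691) or sponge replicate 1 (0.0609), and without sponge replicate 1 EGLN1 passed at -0.42 (adjusted p = 0.0366). That of EGLN3 was lost without control replicate 1 (0.0837), control replicate 3 (0.0634) or sponge replicate 2 (0.0696).

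Of the 12 other HIF targets, 4 were higher and 2 lower in MMS1 sponge arrays, with a median difference of 0.03. Of all genes 4.34% were higher and 8.08% lower, and of genes at least as bright as the median gene 19.3% were called. BNIP3, a mitochondrial protein that marks mitochondria for removal, had log2 signals of 11.32, 11.12 and 11.11 on sponge arrays, against 10.43, 10.45 and 10.48 on control arrays. The 2 groups lay well apart, and the difference of 0.73 (SE 0.09, adjusted p = 0.000223) was the largest rise among the probe sets used here, 1.66-fold. With the mean over probe sets SLC2A3 rose by more (1.04, against 0.73 for BNIP3). The second BNIP3 probe set rose too. Its relative BNIP3L, which acts in the same process and clears mitochondria from maturing red cells, differed by -0.02 (SE 0.11, adjusted p = 0.957). The difference between the 2 genes was not tested.

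MXI1, a MAX-binding repressor that opposes MYC, had log2 signals of 9.46, 9.15 and 9.31 on MMS1 sponge arrays, against 8.87, 8.84 and 8.98 on MMS1 control arrays. The groups did not overlap, and the difference was 0.41 (SE 0.10, adjusted p = 0.0248). P4HA2 and P4HA1 are catalytic subunits of the prolyl hydroxylase that matures collagen. P4HA2 had signals of 8.32, 8.13 and 8.03 on sponge arrays, against 7.86, 7.71 and 7.76 on control arrays, a difference of 0.38 (SE 0.10, adjusted p = 0.0334). P4HA1 had signals of 11.24, 11.14 and 11.11 on sponge arrays, against 10.89, 10.83 and 10.76 on control arrays, a difference of 0.33 (SE 0.10, adjusted p = 0.047). In both genes every sponge array lay above every control array. These were the weakest of the calls: the P4HA1 call ended when any 1 of 11 arrays was dropped (every array but RPMI8226 control replicate 1, adjusted p up to 0.161), P4HA2 without 6 (MMS1 control replicates 1, 2 and 3, MMS1 sponge replicates 1 and 2 and RPMI8226 control replicate 2, up to 0.113) and MXI1 without 4 (MMS1 control replicates 1 and 2 and sponge replicates 1 and 3, up to 0.087). With the mean of all probe sets of a gene in place of the brightest, the adjusted p was 0.458 for P4HA1 and 0.509 for P4HA2.

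BHLHE40, a transcriptional repressor also known as DEC1, went the other way. It had log2 signals of 10.43, 10.21 and 10.25 on MMS1 sponge arrays, against 10.91, 10.84 and 10.87 on MMS1 control arrays. No sponge array reached the lowest control array, and the difference was -0.58 (SE 0.10, adjusted p = 0.0022). NDRG1, a stress-responsive gene used widely as a hypoxia marker, had signals of 10.50, 10.40 and 10.27 on sponge arrays, against 10.96, 10.87 and 10.84 on control arrays. It fell by 0.50 on the log2 scale (SE 0.10, adjusted p = 0.00458), again with no overlap. The remaining targets that did not pass were ANKRD37 (0.13), LOXL2 (0.08), ADM (-0.07), KDM3A (-0.20) and INSIG2 (-0.31), and ADM lay close to the floor of the scale on all 12 arrays, at no more than 4.91.

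The 2 glucose transporters with a probe set moved in opposite directions in MMS1. SLC2A3 encodes GLUT3, the high-affinity carrier, and had log2 signals of 9.996, 9.77 and 9.79 on sponge arrays, against 9.44, 9.33 and 9.43 on control arrays. The sponge arrays were all higher, by 0.45 (SE 0.10, adjusted p = 0.00889). SLC2A1 encodes GLUT1, the basal carrier and the main one of red cells, and had signals of 9.32, 9.09 and 9.26 on sponge arrays, against 9.92, 9.73 and 9.81 on control arrays. The sponge arrays were all lower, with a difference of -0.59 (SE 0.11, adjusted p = 0.00265). When its probe sets were averaged SLC2A1 no longer passed (adjusted p = 0.0892).

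Of the 17 glycolytic enzymes, 2 rose and 2 fell in MMS1, and 11 had a positive difference (median 0.12). Of all genes 4.34% rose and 8.08% fell, and of genes at least as bright as the median gene 19.3% were called. The count that rose was 7 with the mean over probe sets, 6 with a prior variance that follows the signal or with the brighter probe sets alone, 4 with quantile normalization, and 1 with the arrays of the 2 groups alone or without _x_at probe sets, which left 14 of the enzymes. In each of these fits PFKP and HK1 were the 2 that fell. Calls over all features moved as well. Those higher numbered 1006 of 19775 genes with the mean over probe sets. Of 54613 probe sets, 2296 were higher as designed, 2943 with the signal-dependent prior, 2957 with quantile normalization and 1563 with the 2 groups alone. With the brighter probe sets alone 2543 of 27307 were higher. ALDOA has no probe set outside the _x_at class, so it was not among the 14. The 2 that fell carry out the ATP-using steps. PFKP, the platelet form of phosphofructokinase, had log2 signals of 8.60, 8.45 and 8.44 on sponge arrays, against 9.63, 9.44 and 9.70 on control arrays. The gap between the groups was wide, and the difference of -1.09 (SE 0.10, adjusted p = 1.29e-05) made it 2.13-fold lower, the largest change among the probe sets used here. Averaged over all PFKP probe sets, the fall was 0.63 on the log2 scale (adjusted p = 0.000881). HK1, the hexokinase that traps glucose in the cell, had signals of 11.17, 11.11 and 11.13 on sponge arrays, against 11.93, 11.76 and 11.91 on control arrays. It was 1.66-fold lower with no overlap, a difference of -0.73 (SE 0.09, adjusted p = 0.000204). Their paralogs did not pass: HK2 differed by -0.05, PFKL by -0.04 and PFKM by 0.29 (adjusted p = 0.862, 0.851 and 0.105). PFKM passed in 4 alternatives, with adjusted p-values of 0.0226 to 0.0476. The differences between paralogs were not tested.

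The 2 enzymes that rose act next to these steps. GPI, which turns glucose 6-phosphate into fructose 6-phosphate, had log2 signals of 12.88, 12.76 and 12.80 on MMS1 sponge arrays, against 12.40, 12.26 and 12.36 on MMS1 control arrays. All sponge arrays were higher, with a difference of 0.47 (SE 0.09, adjusted p = 0.00491). ALDOA, an aldolase that splits the 6-carbon sugar, had signals of 14.24, 14.31 and 14.34 on sponge arrays, against 13.93, 13.91 and 13.93 on control arrays. Its sponge arrays were also all higher, by 0.37 (SE 0.09, adjusted p = 0.0143). The other 13 enzymes differed by -0.05 to 0.29 with adjusted p-values of 0.0683 (ALDOC) to 0.991 (ENO2). GAPDH, often used as a loading control, differed by 0.10 (SE 0.09, adjusted p = 0.585), and LDHA, which makes lactate, by 0.22 (adjusted p = 0.135). ALDOA, GAPDH, LDHA and ENO1 read 13.05 to 14.49 on the arrays, close to the highest value of the table.

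Of the 4 kinases that set the pathway's pace, 1 rose in MMS1, where 4.34% of all genes rose. PFKFB3 makes fructose 2,6-bisphosphate, the strongest activator of phosphofructokinase. It had log2 signals of 7.52, 7.26 and 7.31 on sponge arrays, against 7.12, 6.79 and 6.73 on control arrays. The groups did not overlap, and the difference was 0.48 (SE 0.12, adjusted p = 0.0234). PFKFB4, of the same family, differed by 0.05, and the pyruvate dehydrogenase kinases PDK1 and PDK3, which hold pyruvate back from the mitochondria, by 0.25 and 0.11 (adjusted p = 0.291 to 0.84). The PFKFB3 call was lost without control replicate 2 (adjusted p = 0.0881), control replicate 3 (0.104) or sponge replicate 1 (0.071).

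**Figure D2:**
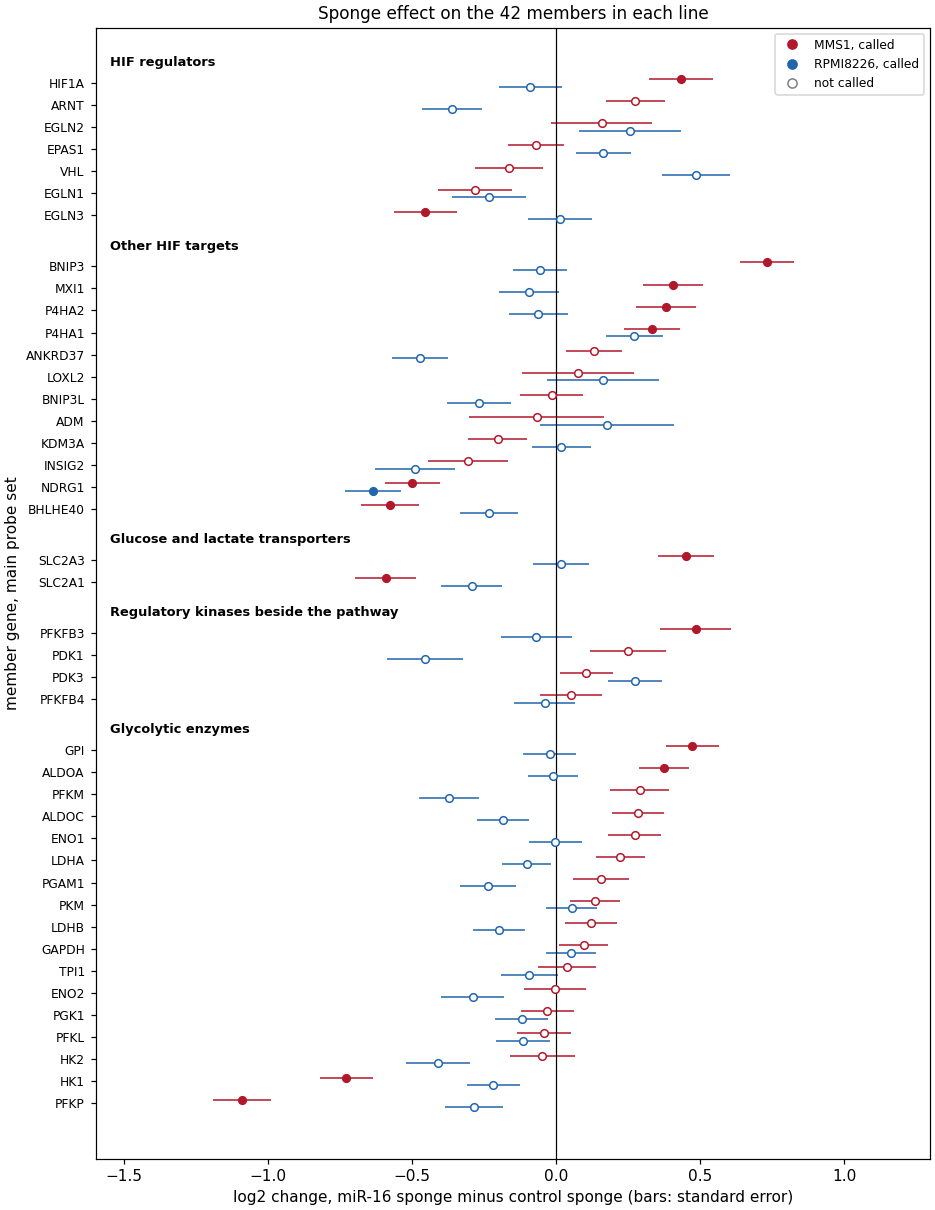
Log2 difference between sponge and control arrays of the 42 genes by role, 1 row a gene, for MMS1 and for RPMI8226, with bars of 1 standard error and filled points where adjusted p is under 0.05. PFKP (-1.09) and BNIP3 (0.73) mark the ends of the MMS1 range, and in RPMI8226 NDRG1 (-0.64) is the only filled point.

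Several genes are read by more than 1 probe set, and these differed in size. Over the 100 probe sets tested that name a gene of the set, 18 rose and 7 fell in MMS1, where 10.3% of all probe sets were called. All 5 SLC2A3 probe sets rose, by 0.45 to 1.70 on the log2 scale. The brightest over all arrays, used above, gave the smallest rise, and the largest came from 202497_x_at, which read 11.02, 10.59 and 10.62 on sponge arrays, against 9.16, 8.99 and 8.998 on control arrays. Of these 5, 216236_s_at and 222088_s_at also name the near-identical gene SLC2A14, and the signals of both genes cannot be told apart there. All 3 ALDOA probe sets rose, by 0.36 to 0.80, and the dimmest of them gave the largest rise. All 3 are of the cross-hybridising _x_at class, so their rises may not be independent readings.

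PKM, the pyruvate kinase of most tissues, differed by 0.13 (adjusted p = 0.414) with its main probe set, but 213700_s_at read 8.21, 8.13 and 7.98 on MMS1 sponge arrays, against 6.77, 6.998 and 7.09 on MMS1 control arrays. That probe set rose by 1.15 (adjusted p = 2.71e-05). ENO1, an enolase, likewise differed by 0.27 (adjusted p = 0.0844) with its main probe set, while 240258_at read 7.23, 7.03 and 6.91 on sponge arrays, against 5.97, 6.04 and 5.88 on control arrays, and rose by 1.09 (adjusted p = 4.26e-05). VHL fell with its dimmer probe set 203844_at only, at 5.76, 5.17 and 5.59 on sponge arrays, against 6.24, 6.09 and 6.01 on control arrays (difference -0.61, adjusted p = 0.0229). Which transcript forms these probe sets read was not analysed here.

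**Figure D3:**
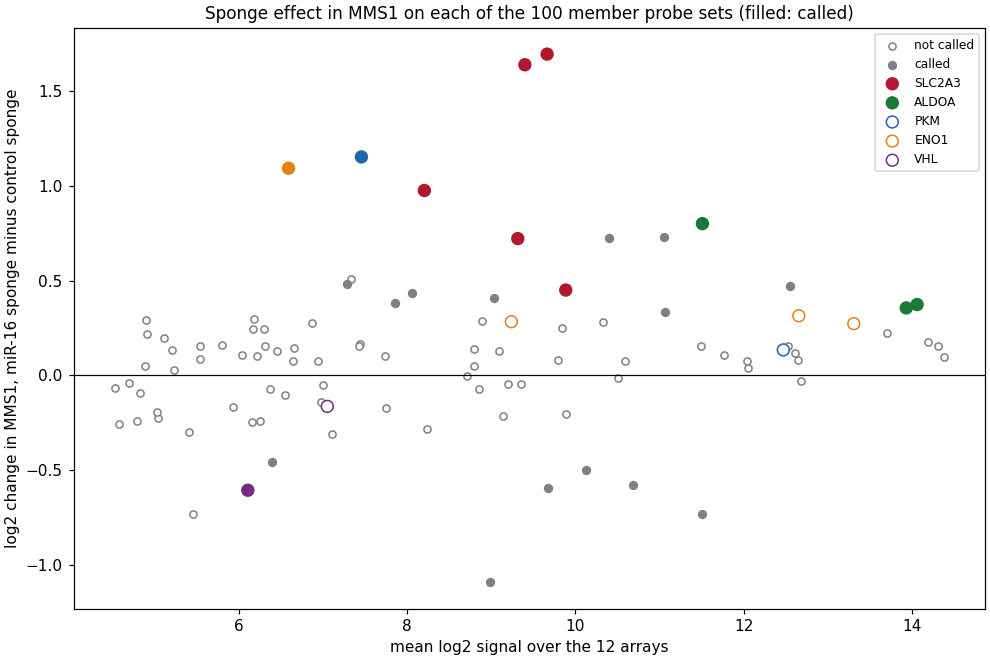
Log2 difference between MMS1 sponge and MMS1 control arrays against mean log2 signal over the 12 arrays, 1 point for each of 100 probe sets naming a gene of the set, with SLC2A3, ALDOA, PKM, ENO1 and VHL in colour. All 5 SLC2A3 points lie between 0.45 and 1.70, and the dimmer PKM and ENO1 probe sets (1.15 and 1.09) lie far above the main ones.

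In RPMI8226 only NDRG1 passed, and it fell. It had log2 signals of 9.29, 9.37 and 9.26 on sponge arrays, against 10.01, 9.91 and 9.92 on control arrays. The arrays did not overlap, and the difference was -0.64 (SE 0.10, adjusted p = 0.027), which lies beside -0.50 in MMS1. Of all genes 0.217% were called in RPMI8226, 0.0152% higher and 0.202% lower. The call was lost without any 1 of the 6 RPMI8226 arrays or the 3 MMS1 control arrays (adjusted p = 0.0503 to 0.124). It was kept without each of the MMS1 sponge arrays. The erythroid marker sum was higher on RPMI8226 sponge arrays, and its part in this comparison was not tested.

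Most of the other 41 genes had lower sponge than control means in RPMI8226 without passing. Of the 42, 30 had a negative difference, with a median of -0.09 against -0.02 over all genes, and 15 had an unadjusted p under 0.05 on the lower side and 3 on the higher side. Over all genes 9.75% and 4.56% did. Of the 17 enzymes 15 were negative (median -0.12), and in 10 of them all sponge arrays lay below all control arrays. Among all genes 17.1% lay wholly below in this way and 7.79% wholly above, and of the 42 genes 18 and 5 did. HK2, the inducible hexokinase, had log2 signals of 9.24, 9.40 and 9.28 on sponge arrays, against 9.64, 9.66 and 9.85 on control arrays (difference -0.41, SE 0.11, adjusted p = 0.141). ANKRD37, a small ankyrin-repeat HIF target, had signals of 9.13, 9.15 and 8.96 on sponge arrays, against 9.50, 9.60 and 9.56 on control arrays (difference -0.47, SE 0.10, adjusted p = 0.0713). Averaged over all ANKRD37 probe sets, the difference was -0.06 (adjusted p = 0.862).

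The RPMI8226 count depended on the prior variance and on the filter for dim probe sets, which also leaves fewer tests. With a prior variance that follows the signal, 10 genes were lower and 2 higher, and with the brighter probe sets alone 7 were lower and 1 higher. NDRG1, HK2, ANKRD37, INSIG2, PFKM and PDK1 were lower and VHL was higher in both of these fits. All probe sets called in RPMI8226 numbered 107 of 54613 in the fit as designed, 1697 of 54613 with the first alternative and 1268 of 27307 with the second. Without MMS1 sponge replicate 1, which enters this comparison only through the shared estimate of spread, 4 of the set were lower, among them ANKRD37 (adjusted p = 0.0312) and PDK1 (0.0435), and 723 probe sets were called.

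The sponge differences of both lines were compared, as the RPMI8226 difference minus the MMS1 difference. For 3 genes it was higher and for 6 lower, and 5.9% of all genes were called (2.63% higher and 3.27% lower). These shares include dim genes, while 38 of the 42 genes were at least as bright as the median gene. With the brighter probe sets alone 1742 of 27307 probe sets were higher and 2525 lower, beside 4 and 14 of the genes. BNIP3 differed by -0.06 in RPMI8226 and 0.73 in MMS1, and its signals were 11.25, 11.26 and 11.28 on RPMI8226 sponge arrays, against 11.27, 11.32 and 11.37 on RPMI8226 control arrays. These overlapped, and the contrast between the lines was -0.79 (SE 0.13, adjusted p = 0.00385). PFKP had signals of 8.82, 8.76 and 8.78 on RPMI8226 sponge arrays, against 9.11, 9.02 and 9.09 on RPMI8226 control arrays. It was lower on sponge arrays in both lines, by -0.29 in RPMI8226 (not called) and -1.09 in MMS1, so the contrast of 0.80 (SE 0.14, adjusted p = 0.00525) is one of size. BNIP3 and PFKP kept this call without any 1 array, while PFKP lost it (adjusted p = 0.123) when its probe sets were averaged.

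The other 7 contrasts between the lines were each lost when some single array was left out. PFKM, the muscle phosphofructokinase, had log2 signals of 8.68, 8.72 and 8.58 on RPMI8226 sponge arrays, against 8.98, 9.05 and 9.07 on RPMI8226 control arrays, and 9.25, 9.08 and 8.93 on MMS1 sponge arrays, against 8.87, 8.75 and 8.77 on MMS1 control arrays. It lay lower with the sponge in RPMI8226 and higher in MMS1, a contrast of -0.66 (SE 0.15, adjusted p = 0.0198). ARNT, the beta subunit, had signals of 6.72, 6.54 and 6.45 on RPMI8226 sponge arrays, against 6.95, 6.96 and 6.88 on RPMI8226 control arrays, and 7.24, 7.14 and 7.0 on MMS1 sponge arrays, against 6.87, 6.85 and 6.84 on MMS1 control arrays. It ran in the same opposite directions (contrast -0.64, SE 0.15, adjusted p = 0.0232), but none of its other 6 probe sets passed, and without probe sets of the cross-hybridising _x_at class its adjusted p was 0.959. ANKRD37 had signals of 9.04, 8.89 and 8.86 on MMS1 sponge arrays, against 8.77, 8.78 and 8.84 on MMS1 control arrays, and its contrast was -0.60 (SE 0.14, adjusted p = 0.0225). PDK1 had signals of 9.80, 9.81 and 9.62 on RPMI8226 sponge arrays, against 10.10, 10.30 and 10.18 on RPMI8226 control arrays, and 10.16, 9.64 and 9.73 on MMS1 sponge arrays, against 9.60, 9.55 and 9.64 on MMS1 control arrays. The sponge arrays were all lower in RPMI8226, and in MMS1 they lay above the controls with almost no gap (contrast -0.71, SE 0.19, adjusted p = 0.0455).

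VHL, the ubiquitin ligase subunit that removes the alpha subunit, had log2 signals of 7.54, 7.43 and 7.68 on RPMI8226 sponge arrays, against 6.83, 7.12 and 7.24 on RPMI8226 control arrays, and 6.79, 6.66 and 6.72 on MMS1 sponge arrays, against 6.98, 6.86 and 6.82 on MMS1 control arrays. The RPMI8226 sponge arrays lay above their controls and the MMS1 sponge arrays below theirs, a contrast of 0.65 (SE 0.17, adjusted p = 0.0423). HK1 had signals of 11.42, 11.38 and 11.39 on RPMI8226 sponge arrays, against 11.54, 11.67 and 11.63 on RPMI8226 control arrays, lower in both lines but less so in RPMI8226 (contrast 0.51, SE 0.13, adjusted p = 0.0397). GPI had signals of 12.51, 12.46 and 12.57 on RPMI8226 sponge arrays, against 12.49, 12.60 and 12.51 on RPMI8226 control arrays, which overlapped (contrast -0.49, SE 0.13, adjusted p = 0.0466). Leaving out any 1 of the 12 arrays ended the GPI contrast (adjusted p = 0.0638 to 0.113). The HK1 contrast was kept only without MMS1 control replicate 2 or MMS1 sponge replicate 1 (up to 0.103 otherwise), that of VHL only without MMS1 sponge replicate 1 or RPMI8226 control replicate 3 (up to 0.106), and that of PDK1 only without an MMS1 sponge array (up to 0.108). The ARNT contrast was lost without any MMS1 control array, RPMI8226 control replicates 1 or 2 or RPMI8226 sponge replicates 2 or 3 (up to 0.0615). Those of ANKRD37 and PFKM were both lost without MMS1 control replicate 2, RPMI8226 control replicates 2 or 3 or RPMI8226 sponge replicate 3, and further without MMS1 control replicate 1 for ANKRD37 and replicate 3 for PFKM (up to 0.0625). With the mean over probe sets ANKRD37 gave an adjusted p of 0.707. Over all 17 enzymes 15 contrasts were negative, with a median of -0.29 against 0.04 over all genes. The count of 6 genes with a lower contrast was 1 without MMS1 control replicate 2, RPMI8226 control replicate 2 or RPMI8226 sponge replicate 3, 2 without replicate 3 of either control group, and 3 without replicate 1 of either control group or RPMI8226 sponge replicate 2. The count of 3 with a higher contrast was 1 without any array other than MMS1 control replicate 2, MMS1 sponge replicate 1 and RPMI8226 control replicate 3.

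The control arrays of the lines were compared as RPMI8226 control minus MMS1 control, where neither carries a sponge against miR-16. In RPMI8226 8 of the 42 genes were higher and 2 lower, and 10.3% of all genes were called (6.52% higher and 3.8% lower). With the brighter probe sets alone 3648 of 27307 probe sets were higher and 1916 lower. The erythroid marker sum was lower on RPMI8226 control arrays, and its part was not tested. All 4 kinases were higher, by 0.53 to 0.89, and none of the 7 HIF regulators was called. PFKFB4 had log2 signals of 9.23, 9.17 and 9.31 on RPMI8226 control arrays, against 8.42, 8.23 and 8.40 on MMS1 control arrays, the largest of these (difference 0.89, SE 0.11, adjusted p = 0.000157). PFKFB3 had signals of 7.42, 7.45 and 7.57 on RPMI8226 control arrays, against the MMS1 control values above (difference 0.60, SE 0.12, adjusted p = 0.00813). PDK1 was higher by 0.60 (SE 0.13, adjusted p = 0.0118) and PDK3 by 0.53 (SE 0.09, adjusted p = 0.00294).

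Of the other genes, BNIP3 was higher in RPMI8226 control arrays by 0.87 (SE 0.09, adjusted p = 6.25e-05) with the values given above, ANKRD37 by 0.76 (SE 0.10, adjusted p = 0.000263) and HK2 by 0.50 (SE 0.11, adjusted p = 0.0132). SLC2A3 had log2 signals of 10.11, 10.12 and 10.19 on RPMI8226 control arrays, against 9.44, 9.33 and 9.43 on MMS1 control arrays, wholly above (difference 0.74, SE 0.10, adjusted p = 0.000314). NDRG1 was the most different in the other direction, at -0.95 (SE 0.10, adjusted p = 3.83e-05), and PFKP was also lower, at -0.52 (SE 0.10, adjusted p = 0.00581). The PDK1 call was lost without RPMI8226 control replicate 2 (adjusted p = 0.0572), and that of HK2 without MMS1 control replicate 2 (0.0504) or RPMI8226 control replicate 3 (0.0692). With the mean over probe sets PDK3, PFKP and HK2 did not pass (0.358, 0.172 and 0.0801). This comparison shares the MMS1 control arrays with the MMS1 sponge comparison. The genes called in both therefore draw on the same 3 arrays in each. They are BNIP3 (0.87 between lines and 0.73 with the sponge), SLC2A3 (0.74 and 0.45), PFKFB3 (0.60 and 0.48), PFKP (-0.52 and -1.09) and NDRG1 (-0.95 and -0.50).

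**Figure D4:**
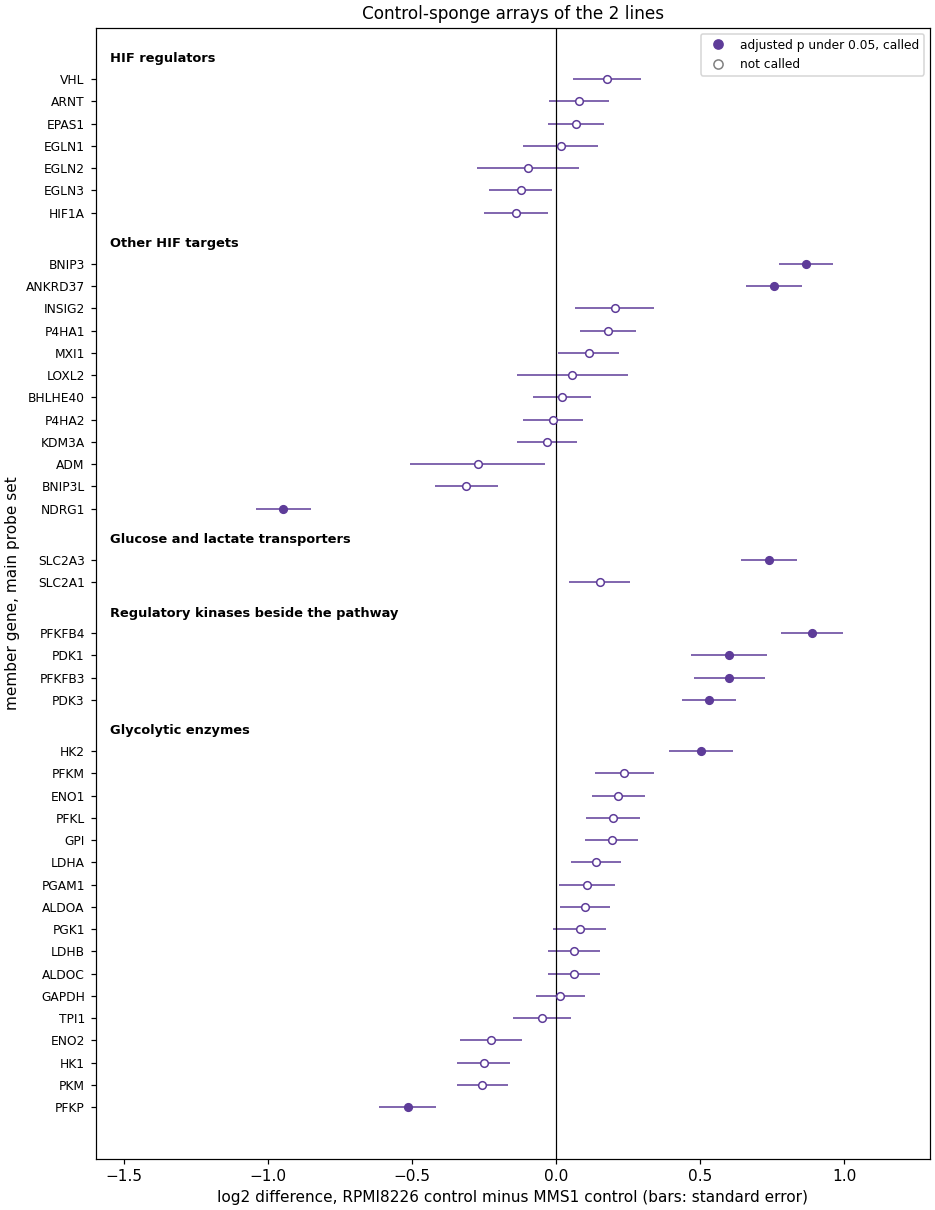
Log2 difference, RPMI8226 control minus MMS1 control, of the 42 genes by role, with bars of 1 standard error and filled points where adjusted p is under 0.05. The 4 kinases all lie at 0.53 or above, while the 7 HIF regulators lie between -0.14 and 0.18 with no filled point.

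Further genes of the HIF response and of glucose metabolism were counted too. Of 45 measured among 51 listed, 11 rose and 5 fell in MMS1, where 12.4% of all genes were called. The list was chosen with earlier results of these data known, so its share of calls is no independent evidence. In RPMI8226 0 passed, and 1 was higher and 8 lower at an unadjusted p under 0.05, as were 4.56% and 9.75% of all genes. CITED2, which competes with HIF for its coactivator, had log2 signals of 7.91, 7.53 and 7.52 on MMS1 sponge arrays, against 6.13, 6.19 and 6.23 on MMS1 control arrays (difference 1.47, SE 0.12, adjusted p = 3.24e-06). TMEM45A and the cyclin G2 gene CCNG2 rose by 1.44 and 0.95 (adjusted p = 5.48e-05 and 0.000343), with no overlap. PKLR, the pyruvate kinase of liver and red cells, had signals of 6.71, 6.46 and 6.72 on MMS1 sponge arrays, against 9.29, 9.07 and 9.05 on MMS1 control arrays, the largest fall of the list (difference -2.50, SE 0.11, adjusted p = 1.27e-08). The red cell transcription factor KLF1, 1 of the erythroid markers above, fell between the same arrays (difference -1.85, SE 0.11, adjusted p = 1.97e-07). Its part in the PKLR result was not tested. Of the 8 erythroid markers measured, 2 were called higher and 4 lower there. TALDO1, an enzyme of the pentose phosphate pathway, fell by 0.53 (adjusted p = 0.00264). In the contrast between the lines 2 of these 45 genes were higher and 8 lower, against 2.63% and 3.27% of all genes. Between the control arrays 7 were higher and 4 lower in RPMI8226, against 6.52% and 3.8% of all genes.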

How the data were processed

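The authors deposited 1 log2 signal per probe set and array, and how probes were summarized or arrays scaled is not stated there (not given in the sources used here). Before hybridization RNA was amplified linearly in 2 rounds, per the labels. No further normalization was applied. With limma 3.58.1 (R 4.3.3) 1 model with a mean for each group took in all 12 arrays, after 62 Affymetrix control probe sets, 3 of them for GAPDH, were left out. It had 8 residual degrees of freedom and 4.92 prior ones, and the median standard error of a difference was 0.140. The number of arrays limits the precision. Two-sided p-values were adjusted by Benjamini and Hochberg over 54613 probe sets in each of 4 comparisons. The fit was also run on simulated data with independent normal noise. That checks the computation only, not shared flasks or the limits of the signal scale in these arrays. Symbols came from the platform annotation, updated through a gene table of GRCh38.p14. Of the probe sets 41097 named 1 gene, 1801 several and 11777 none. Values on every array are given for genes called for the sponge or the difference between lines, and for up to 4 each way between lines. Genes and lists were chosen with earlier results of these data known. The alternatives covered the choice of probe set, quantile normalization, a signal filter, the prior variance, the arrays fitted, the replicate block and each array left out. Counts and figures used Python 3.11.15, pandas 2.3.3, numpy 2.4.6 and matplotlib 3.10.9.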

Additional observations from a re-analysis of the deposited data

Results flagged for a closer look

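For 9 genes of the set the test of the sponge difference between the lines (RPMI8226 minus MMS1, log2 scale) passed. The contrast was -0.79 for BNIP3 (-0.06 in RPMI8226 and 0.73 in MMS1, adjusted p = 0.00385) and 0.80 for PFKP (-0.29 and -1.09, adjusted p = 0.00525). It was -0.66 for PFKM (-0.37 and 0.29), -0.64 for ARNT (-0.36 and 0.28), -0.60 for ANKRD37 (-0.47 and 0.13) and -0.71 for PDK1 (-0.46 and 0.25), with adjusted p-values of 0.0198 to 0.0455. It was -0.49 for GPI (-0.02 and 0.47, adjusted p = 0.0466), 0.51 for HK1 (-0.22 and -0.73, adjusted p = 0.0397) and 0.65 for VHL (0.49 and -0.16, adjusted p = 0.0423). Of these 9, BNIP3 alone was called both in all 7 alternative processings and without any 1 array. PFKM was called in all 7 alternatives, but not without each array.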

How the results depend on the processing

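For single genes, 100 results gave 1967 values over the alternatives and the arrays left out, with 0 reversals of a called value. In 151 of the values a call was lost and in 46 one was gained. The other 1770 were unchanged, either called in both fits or called in neither, and 28 of those called in neither changed sign. With the mean over a gene's probe sets, 10 genes had a lower contrast between the lines, and all genes called were 2806 in MMS1, 1441 for the contrast and 2364 between the controls, counted over genes instead of probe sets (5635, 2786 and 4465 probe sets as designed). With the brighter probe sets alone, 14 genes rose in MMS1, 1 was higher and 7 lower in RPMI8226 (1268 probe sets), 14 had a lower contrast (4267 probe sets) and 5 were lower between the controls. With a prior variance that follows the signal, 2 were higher and 10 lower in RPMI8226 (1697 probe sets), 17 had a lower contrast (4577 probe sets) and 5 were lower between the controls. With the arrays of the 2 groups alone, 2 rose in MMS1 (3735 probe sets) and 0 fell in RPMI8226 (8 probe sets). Residuals of arrays with the same replicate number correlated at -0.07 to 0.06 over 18 pairs. Those with different numbers correlated at -0.06 to 0.09 over 36 pairs. These values gave no sign that the numbers pair the samples, but they cannot exclude it. With the replicate block 0 fell in RPMI8226 (32 probe sets, against 107 without the block) and 1 had a higher contrast.

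Leaving out each array in turn, 4 to 9 genes rose and 5 to 8 fell in MMS1 (3730 to 5570 probe sets), 0 rose and 0 to 4 fell in RPMI8226 (22 to 723), 1 to 3 had a higher and 1 to 5 a lower contrast (1845 to 2797), and 7 to 8 were higher and 2 lower between the controls (2747 to 5379). In RPMI8226, where the count of genes that rose was 0 in limma, 3 had an unadjusted p under 0.05 on the higher side. With 3 arrays a group, the smallest called difference in MMS1 was 0.33 (P4HA1).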
